A study of Mus musculus with 4 samples.

Results

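The genes described here are the messenger RNA rows of the deposited count table whose symbols are those of numbered myosin heavy chains (Myh), light chains (Myl) and unconventional myosins (Myo). This symbol pattern took 50 rows, and 49 of them were typed as mRNA, of 44788 genes in the table and 23374 typed as mRNA. The 49 genes comprise 14 heavy chain genes of class II, 11 light chain genes and 24 unconventional myosin genes. RNA was sequenced from bone marrow stromal cells of C57BL/6J mice of genotype Setd2 fl/fl, in which loxP sites flank part of the gene for a histone H3 lysine methyltransferase. Cells at passage 2 were given a lentivirus carrying GFP (the control) or Cre recombinase (the knockout) and then kept in puromycin at 2 µg/ml for 4 days. Both groups carried the floxed alleles, and each had 2 libraries. The labels do not tell whether these libraries come from separate cultures or mice, so p-values measure only the spread between libraries, which may be technical. The GFP and Cre viruses are the only difference the labels give, so effects of the Cre protein and of Setd2 loss cannot be told apart.

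Myosins are the motor proteins that pull on actin filaments with energy from ATP. Class II myosins, which drive contraction of muscle and of the cell cortex, are built from a pair of heavy chains, each carrying an essential light chain and a regulatory light chain, and phosphorylation of the regulatory light chain switches the motor on in smooth muscle and non-muscle cells. The unconventional myosins, whose genes are named Myo, link membranes and organelles to actin, and use other light chains, often calmodulin. In stromal cells grown on plastic, non-muscle myosin II is part of stress fibres and takes part in adhesion, which was not measured here.

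Library totals were between 12371994 and 14315903 counts. A count of 3, the limit that a count of 0 allows, equalled 0.207 to 0.255 CPM, for counting error only. CPM are counts per 1e6 counts of the library, with library sizes corrected for composition by edgeR's TMM scaling. Setd2, the targeted gene, was at 1400 and 1250 counts with GFP and 551 and 468 with Cre. All 8 stromal cell markers on the list, Col1a1 and Pdgfrb among them, passed the low-count filter. At an edgeR adjusted p under 0.05, 3 of them were higher in Cre (Col1a1, Col1a2 and Thy1) and 1 lower (Cxcl12). Their summed level was 15251 and 15121 CPM in GFP and 19110 and 20155 CPM in Cre. All 9 white blood cell markers passed too, with a summed level of 1989 and 2052 CPM in GFP and 2337 and 2335 CPM in Cre. Of 4 endothelial and 6 heart muscle markers 3 each passed, so passing the filter does not by itself identify the cells. The 18S ribosomal RNA gene Rn18s-rs5 had 922012 counts in GFP replicate 2 and 264682 in GFP replicate 1. In the skeletal muscle list Myod1, Myf5, Ckm, Mb and Pax7 were at 0 counts in every library.

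Of the 49 myosin genes, 24 had enough counts to be tested, and in edgeR's quasi-likelihood test 2 of the 24 were higher in Cre at an adjusted p under 0.05. These were Myl12b, a regulatory light chain gene, and Myh11, the smooth muscle heavy chain gene. In bulk RNA, a change in the number of cells of a type and a change in RNA per cell cannot be told apart. Among all 14483 tested genes 3.74% were called higher and 3.22% lower. No myosin gene was called lower by edgeR, DESeq2 or limma-voom, and in edgeR 1, Myo5a, was lower at an unadjusted p under 0.05. The other 22 tested genes did not pass, with log2 fold changes (Cre over GFP) from -0.15 to 0.34. The median log2 fold change was 0.10 over the 24 genes and -0.00447 over all tested genes, and 18 of the 24 lay above 0 (75%, against 48.9% of all tested genes). Both Cre libraries lay above both GFP libraries in 13 of the 24 genes and below in 2, where the shares over all tested genes were 24.5% and 25.5%.

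**Figure D1:**
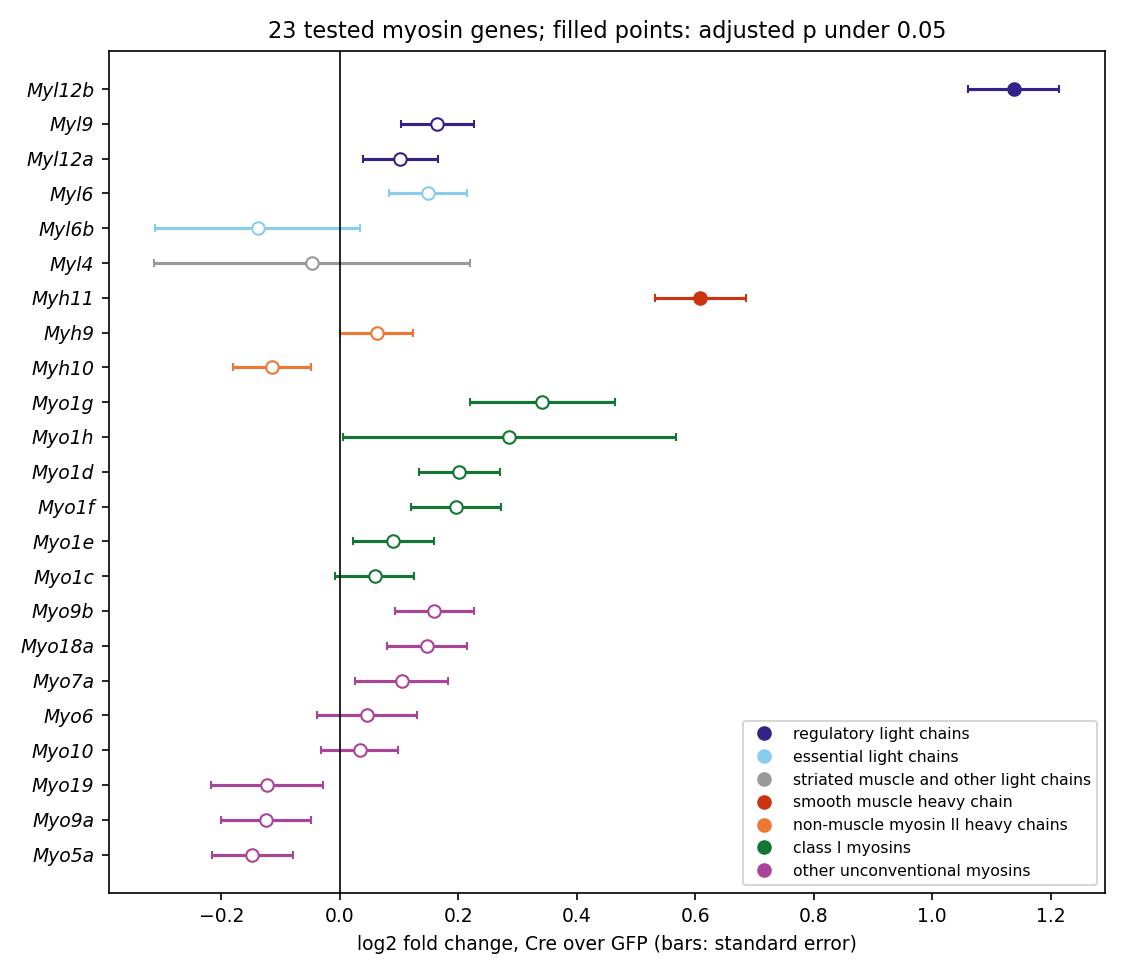
Log2 fold change of 23 tested myosin genes, Cre over GFP, grouped by class, with the standard error as bars. Myl12b at 1.14 and Myh11 at 0.61 are the filled points, which passed an adjusted p of 0.05, while the others lie between -0.15 and 0.34.

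The regulatory light chains of non-muscle and smooth muscle myosin come from Myl12a, Myl12b and Myl9. Myl12a and Myl12b lie next to each other on the minus strand of chromosome 17 (GRCm38), Myl12a from 70993656 to 71002878 and Myl12b downstream of it from 70973133 to 70990890, with 2765 bases between them. Myl9 lies on chromosome 2 from 156775420 to 156781658. The coding sequences of all 3 genes are 516 bases long without the stop codon. Myl12a and Myl12b differ at 18 of these bases (96.5% identity) and have a longest identical run of 102 bases, so short reads from that run have no base that assigns them to either gene. Of all 50-base words in the Myl12a coding sequence, 37.3% also occur in that of Myl12b, and none occurs in that of Myl9, which differs from Myl12a at 74 bases and from Myl12b at 70. The first 150 coding bases are printed because they show this similarity. Capitals mark the bases at which Myl12b and Myl9 differ from Myl12a, and in the Myl12a line those at which it differs from Myl12b. These letters come from GENCODE M21 transcripts on GRCm38, at chr17:70996731-70996880 (minus strand), chr17:70977082-70977231 (minus strand) and chr2:156778545-156778694 (plus strand).
Myl12a: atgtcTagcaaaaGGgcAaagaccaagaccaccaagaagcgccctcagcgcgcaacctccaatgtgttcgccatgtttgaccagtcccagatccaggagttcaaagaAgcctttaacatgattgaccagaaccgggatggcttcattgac
Myl12b: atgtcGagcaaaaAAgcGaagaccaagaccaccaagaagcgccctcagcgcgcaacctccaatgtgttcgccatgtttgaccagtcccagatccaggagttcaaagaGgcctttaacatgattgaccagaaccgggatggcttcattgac
Myl9: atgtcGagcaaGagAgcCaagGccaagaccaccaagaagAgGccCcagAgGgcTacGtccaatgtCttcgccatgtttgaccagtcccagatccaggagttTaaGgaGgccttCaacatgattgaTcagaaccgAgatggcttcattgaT
In this stretch Myl12a and Myl12b differ at 5 bases, and Myl9 and Myl12a at 20.

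Myl12b rose. The GFP libraries held 521 and 471 of its counts and the Cre libraries 1189 and 1348, which is 39.7 and 40.1 CPM against 82.3 and 93.2 CPM. The groups were far apart, and the GFP libraries differed by less than the Cre libraries did. The mean went from 39.9 ± 0.323 to 87.7 ± 7.69 CPM (SD, n = 2 each), a 2.20-fold difference with a log2 fold change of 1.14 and a standard error of 0.08 (edgeR adjusted p = 1.29e-11). Myl12a, the more abundant neighbour, had 759.6 and 713 CPM in GFP and 770.1 and 811 CPM in Cre. Its Cre libraries were both above its GFP libraries, but the difference did not pass (log2 fold change 0.10, standard error 0.06, edgeR adjusted p = 0.382), and the 95% interval of its fold change ran from 0.981 to 1.17. Myl12b therefore made up 4.96% and 5.32% of the joint Myl12a and Myl12b counts in GFP and 9.65% and 10.3% in Cre.

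Because reads of these neighbours can be confused, their counts were also added up and tested as a single feature. The sum was 799 and 753 CPM in GFP and 852 and 904 CPM in Cre, with no overlap between the groups. Its log2 fold change was 0.18 with a standard error of 0.06, which did not pass (edgeR adjusted p = 0.0888). In absolute terms the mean of Myl12b was 47.8 CPM higher in Cre and that of Myl12a 54.0 CPM higher. The annotation also holds a second gene model under the Myl12b symbol, from 70974119 to 71002208, that starts within Myl12a and ends within Myl12b. It covers 462 exon bases of Myl12a and 739 of Myl12b, which are 13.8% and 26.7% of the exon bases of those genes. The part of this model in the Myl12b difference was not tested. A further 6.16% of the Myl12a exon bases lie opposite exons of Myom1 (124 CPM) on the other strand, whose reads cannot be separated without strand information.

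**Figure D2:**
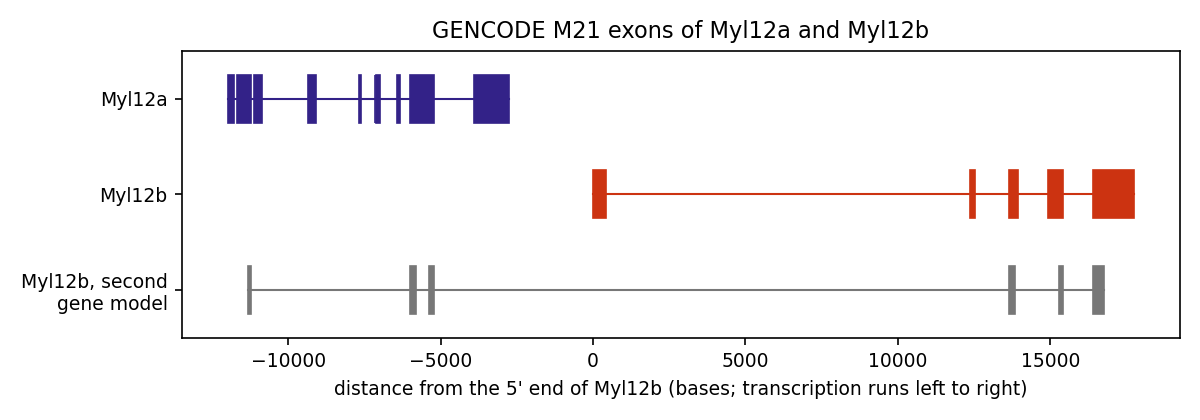
Exons (boxes) of Myl12a, Myl12b and the second Myl12b gene model in GENCODE M21, drawn as distance in bases from the 5' end of Myl12b, with transcription from left to right. Myl12a ends 2765 bases before Myl12b starts, and the second model joins exons of both.

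Because Myl12b was called and its neighbour was not, the 250 bases before each RefSeq start site (GRCm38.p6) are shown. Both are read 5′ to 3′ on the minus strand, at chr17:71002534-71002783 for Myl12a and chr17:70990517-70990766 for Myl12b. GENCODE M21 starts these genes further upstream, at 71002878 for Myl12a and 70990890 for Myl12b. By that annotation the Myl12b stretch lies wholly within an exon and the Myl12a stretch partly within exons, so it may be transcribed sequence. Capitals mark matches to GGGCGG, the GC box bound by Sp family factors, on either strand. Myl12a has 1 match and Myl12b has 3, of which 2 overlap by 1 base.
Myl12a: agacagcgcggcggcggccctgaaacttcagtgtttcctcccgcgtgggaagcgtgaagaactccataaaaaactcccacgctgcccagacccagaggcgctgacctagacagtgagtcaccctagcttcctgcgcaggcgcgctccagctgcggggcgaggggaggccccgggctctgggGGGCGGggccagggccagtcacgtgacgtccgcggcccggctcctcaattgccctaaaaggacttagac
Myl12b: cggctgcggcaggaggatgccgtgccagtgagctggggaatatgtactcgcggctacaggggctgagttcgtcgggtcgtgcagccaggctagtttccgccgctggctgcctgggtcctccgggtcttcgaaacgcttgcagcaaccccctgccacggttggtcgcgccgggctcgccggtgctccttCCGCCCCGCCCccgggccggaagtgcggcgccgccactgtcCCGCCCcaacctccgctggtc
Searched on both strands in the 250 bases before each start, a GC box is present in 32.7% of all 32851 RefSeq promoters. TATAAA, a core promoter element, is present in 12.4%. CCAAT, the site of the factor NF-Y, is present in 33.8%. The CArG box, the binding sequence of the serum response factor SRF, is present in 1.47%. The Myl12a and Myl12b promoters hold no match to these last 3 motifs. Of the myosin genes, 43 had at least 1 promoter in that table, with 54 promoters in all, and Myh11 had no entry. Of these 54 promoters 42.6% hold a GC box, 18.5% TATAAA, 33.3% CCAAT and 11.1% (6 promoters) a CArG box. A CArG box lies before Myl6, Myl9 and Myo1e among the tested genes and before Myh4, Myl3 and Myl7 among the untested ones. The log2 fold changes of Myl6, Myl9 and Myo1e were 0.15, 0.16 and 0.09, and none of the 3 passed.

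Myl9, the regulatory light chain gene of smooth muscle, was the most abundant light chain gene. It had 1431 and 1505 CPM in GFP and 1609.7 and 1681 CPM in Cre, so the Cre libraries were both higher. The log2 fold change of 0.16 (standard error 0.06) did not pass in edgeR (adjusted p = 0.109) and passed in DESeq2 (adjusted p = 0.0395). Its share of the joint counts of the 3 regulatory light chain genes was 64.2% and 66.6% in GFP and 65.4% and 65.0% in Cre, so the Cre values lay within the range of the GFP values.

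The essential light chains of the same motors are encoded by Myl6 and Myl6b on chromosome 10, where Myl6 lies 11 bases downstream of Myl6b on the same strand. Myl6 had 581 and 520.4 CPM in GFP and 596 and 625 CPM in Cre (log2 fold change 0.15, edgeR adjusted p = 0.183). The groups did not overlap, and the gap between the GFP libraries was wider than that between the nearest GFP and Cre libraries. Some Myl6 reads may be shared with other genes, since 7.59% of the 50-base words of its longest annotated transcript occur in other genes' transcripts. That transcript is an annotated retained intron of 3040 bases, against 474 coding bases, and the share within the mature mRNA was not measured. Myl6b was low, at 6.09 and 6.81 CPM in GFP and 4.98 and 6.70 CPM in Cre, and its groups overlapped.

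**Figure D3:**
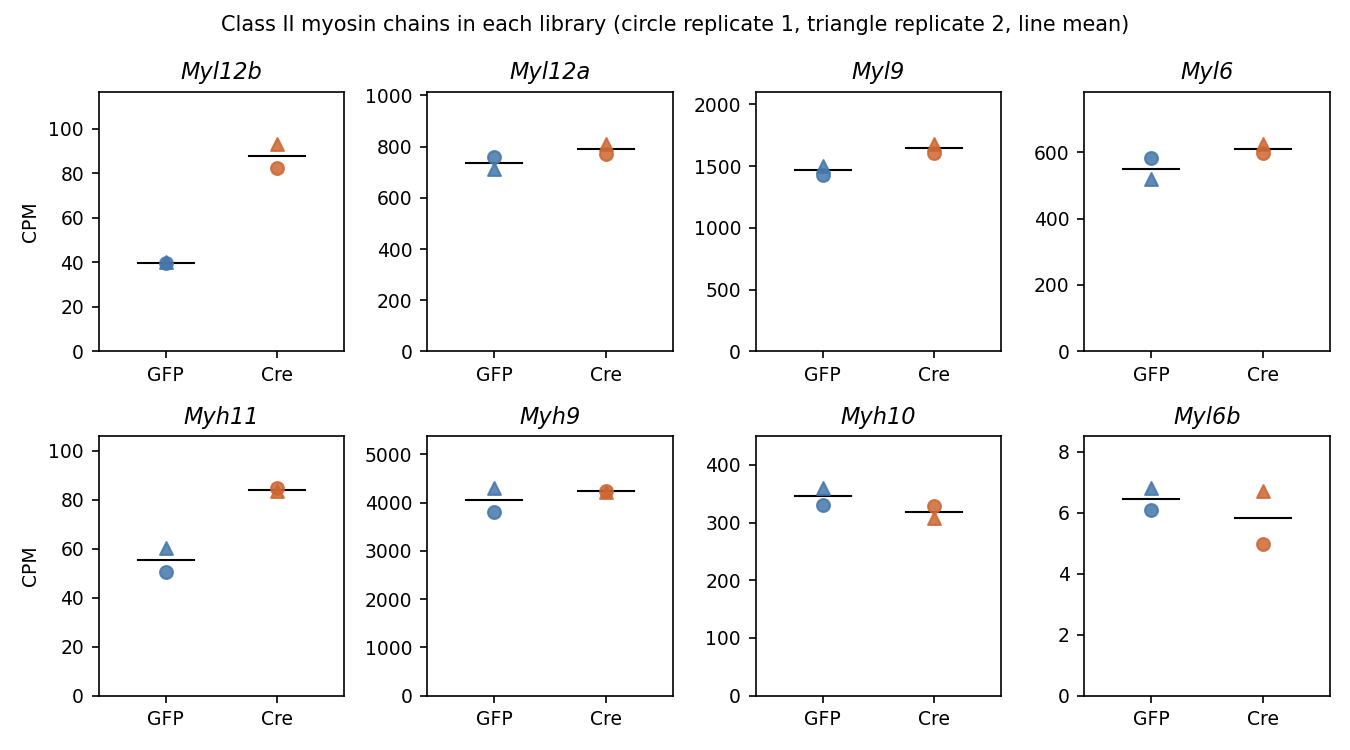
CPM of 8 class II myosin chain genes in each library, with circles for replicate 1, triangles for replicate 2 and a line at the group mean; each vertical axis starts at 0. Myl12b (39.7 and 40.1 CPM in GFP, 82.3 and 93.2 in Cre) and Myh11 (50.3 and 60.2 in GFP, 84.7 and 83.3 in Cre) are clearly separated, while Myh9 and Myl6b overlap.

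Among heavy chains, Myh11 rose and the non-muscle genes did not pass. Myh11 lies on chromosome 16 from 14194535 to 14291372 and encodes the heavy chain that marks differentiated smooth muscle. The GFP libraries held 661 and 707 of its counts and the Cre libraries 1224 and 1206, or 50.3 and 60.2 CPM against 84.7 and 83.3 CPM. The GFP libraries differed from each other by more than the Cre libraries did, and all GFP values were below all Cre values. The mean went from 55.3 ± 7.00 to 84.0 ± 0.959 CPM (SD, n = 2 each), a 1.52-fold difference with a log2 fold change of 0.61 and a standard error of 0.08 (edgeR adjusted p = 2.78e-06). Of the 8 smooth muscle and myofibroblast markers on the list, Cnn1 and Smtn were called higher and Tagln and Actg2 lower, and the median log2 fold change was -0.13. The log2 fold changes of the markers that did not pass were 0.12 for Lmod1, -0.10 for Myocd, -0.16 for Acta2 and -0.49 for Des. The summed level of the 8 markers was 17037 and 16094 CPM in GFP and 14351 and 14905 CPM in Cre. Acta2 alone held 10634 and 10069 CPM of it in GFP and 9051 and 9445 CPM in Cre. No marker of the list was at 0, and the part of these cells in the Myh11 difference was not tested.

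Myh9 encodes the main non-muscle heavy chain (IIA) and held most of the heavy chain reads. Its counts were 50086 and 50505 for GFP and 61270 and 61209 for Cre, which is 3812 and 4301 CPM against 4240.0 and 4230.1 CPM. The Cre values lay between the GFP values. Its log2 fold change was 0.06 (edgeR adjusted p = 0.623), with a 95% interval of the fold change from 0.956 to 1.14. Myh10, the non-muscle IIB chain, had 331 and 359.9 CPM in GFP and 329 and 309 CPM in Cre. Both Cre values were lower than both GFP values, and the difference did not pass (log2 fold change -0.11, edgeR adjusted p = 0.331). Myh14, the IIC chain, stood at 4, 4, 4 and 7 counts (GFP first), too few to test. Of the joint counts of Myh9, Myh10, Myh14 and Myh11, Myh9 held 90.9% and 91.1% in GFP and 91.1% and 91.5% in Cre, Myh10 held 7.90% and 7.62% against 7.07% and 6.68%, and Myh11 held 1.20% and 1.28% against 1.82% and 1.80%.

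The sarcomeric chains had almost no counts. The 10 other heavy chain genes, which encode the fast, slow, embryonic, perinatal, cardiac and specialised motors of striated muscle (Myh1, Myh2, Myh3, Myh4, Myh6, Myh7, Myh7b, Myh8, Myh13 and Myh15), had 6, 4, 7 and 7 counts in all per library. Myh4 and Myh8 had 0 counts in every library, which allows up to 0.255 CPM in GFP replicate 2, the smallest library. Up to 32.1% of the 50-base words of these genes (Myh1) occur in another gene, so single reads among them are uncertain. The light chain genes of striated muscle, and Myl10, which is not one of them, were also low. Myl1 and Myl7 had 0 counts in every library, Myl2 had between 0 and 2, Myl3 between 1 and 5, and Myl10 between 1 and 7. Myl4, the atrial and embryonic light chain gene, was the only one tested, with 26 to 36 counts per library (log2 fold change -0.05, edgeR adjusted p = 0.950). Of the skeletal muscle markers only the actin gene Acta1 had enough counts for the test, at 38.2 ± 2.35 CPM in GFP and 57.8 ± 1.71 CPM in Cre (SD, n = 2 each), and it was called higher.

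Class I myosins are single-headed motors that tether membranes to the actin cortex. Of 8 such genes 7 were tested and none passed. All 7 log2 fold changes lay above 0 (median 0.20), as did those of 48.9% of all tested genes. In 5 of the 7 both Cre libraries were above both GFP libraries, which held for 24.5% of all tested genes. With each library left out in turn, the lowest log2 fold changes of Myo1c and Myo1e were -0.0381 and -0.00515, and the rest stayed above 0. Myo1c, which acts in vesicle docking and in adaptation of hair cells, was the most abundant, with 624 and 718 CPM in GFP and 692 and 706 CPM in Cre. Its groups overlapped (log2 fold change 0.06, edgeR adjusted p = 0.679). Myo1e had 102 and 117 CPM in GFP and 119 and 115 CPM in Cre (log2 fold change 0.09), with overlapping groups.

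Myo1d came nearest to the threshold among the genes that did not pass. It had 87.0 and 97.6 CPM in GFP and 106 and 106 CPM in Cre, with both Cre values above the GFP values (log2 fold change 0.20, standard error 0.07, edgeR adjusted p = 0.0697). Myo1f and Myo1g are best known from white blood cells, where they act in adhesion and membrane tension. Myo1f had 47.1 and 51.3 CPM in GFP and 56.6 and 56.0 CPM in Cre (log2 fold change 0.20, edgeR adjusted p = 0.117). Myo1g had 11.3 and 10.9 CPM in GFP and 14.0 and 14.2 CPM in Cre (log2 fold change 0.34, edgeR adjusted p = 0.0882). The white blood cell markers had a median log2 fold change of 0.16, with Cd68, Lyz2 and Tyrobp called higher and Emr1 lower out of 9 tested, and their part in the Myo1f and Myo1g values was not tested. Myo1h was low, at 20 to 32 counts per library, and it shares 25.8% of its exon bases with the far more abundant Kctd10 on the opposite strand, so its count is uncertain. Myo1a had between 3 and 6 counts per library.

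Of 16 other unconventional myosin genes, 8 were tested and none passed. Myo9b, a motor with a GTPase-activating domain, had 244 and 274 CPM in GFP and 283 and 294 CPM in Cre, with no overlap (log2 fold change 0.16, edgeR adjusted p = 0.158). Myo10, which carries cargo to the tips of filopodia, had 257 and 266 CPM in GFP and 278 and 257 CPM in Cre (log2 fold change 0.03). Myo10 values of the groups overlapped. Myo5a, the organelle transporter of melanocytes and neurons, had 250.1 and 265 CPM in GFP and 248 and 217 CPM in Cre. Both Cre values were lower, and the log2 fold change of -0.15 did not pass (edgeR adjusted p = 0.208). Myo18a, a Golgi-associated myosin, had 101 and 114 CPM in GFP and 117 and 120.4 CPM in Cre (log2 fold change 0.15, edgeR adjusted p = 0.200). Its groups did not overlap. The remaining tested genes were the hearing gene Myo7a (0.10), the minus-end directed motor gene Myo6 (0.05), the mitochondrial motor gene Myo19 (-0.12) and Myo9a (-0.12). The untested genes Myo3a, Myo3b, Myo5b, Myo5c, Myo7b, Myo15, Myo16 and Myo18b had between 0 and 6 counts per library, and Myo3a had 0 in all 4.

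Per length, light chain genes and Myh9 led the family. Levels of different genes were compared as CPM per kilobase of the longest annotated transcript. In GFP libraries Myl9 stood at 1301 ± 46.3, Myh9 at 546 ± 46.5, Myl12a at 380.2 ± 16.9, Myl6 at 181 ± 14.1 and Myo1c at 142 ± 14.0 CPM per kilobase (SD, n = 2). These 5 lay apart by more than the SDs. Of the genes below these, Myh10, Myo9b, Myo10, Myo1e, Myo5a and Myl12b lay from 44.4 ± 2.60 down to 18.6 ± 0.151 in GFP. Among them Myo9b (35.4 ± 2.89) and Myo10 (32.2 ± 0.814) differed by about as much as the Myo9b replicates did. In Cre libraries Myl12b stood at 40.9 ± 3.59, within the spread of Myh10 at 41.0 ± 1.85. Myh11 stood at 8.44 ± 1.07 in GFP and 12.8 ± 0.147 in Cre. The order depends on the length used: the longest Myl6 transcript is an annotated retained intron, and per kilobase of coding sequence Myl9 (3017), Myl12a (1479) and Myl6 (1225) all stood above Myh9 (705) over the 4 libraries.

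**Figure D4:**
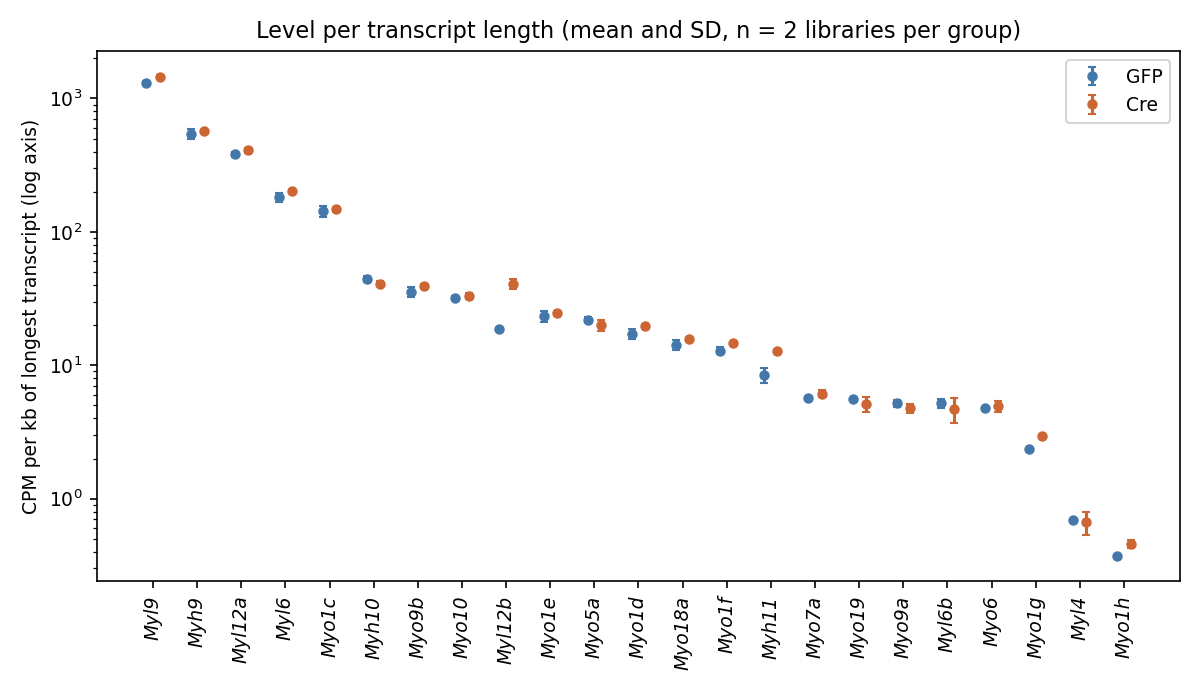
CPM per kilobase of the longest annotated transcript for 23 tested myosin genes, on a log axis, as mean and SD of 2 libraries per group. Levels run from 1458 for Myl9 in Cre (1301 in GFP) to under 1 for Myl4 and Myo1h, and Myl12b is the gene whose GFP (18.6) and Cre (40.9) points are furthest apart.

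Of 61 tested genes that switch, fold and steer myosin, 6 were called higher (9.84%, against 3.74% of all tested genes) and 4 lower (6.56%, against 3.22%). Of 20 tested genes for light chain kinases, the phosphatase and their regulators, 1 was called higher and 2 lower, with a median log2 fold change of -0.00119. Dapk3, a kinase of the regulatory light chain, rose from 40.5 ± 1.85 to 60.3 ± 4.49 CPM (log2 fold change 0.58), while Dapk1 (-0.25) and the citron kinase gene Cit (-0.33), which acts in cytokinesis, fell. The light chain kinase gene Mylk stood at 535 ± 3.56 CPM in GFP and 521 ± 12.0 CPM in Cre and did not pass (edgeR adjusted p = 0.780). Of 7 tested genes of myosin folding and assembly, 2 were called higher, S100a4 (0.66), whose product binds the Myh9 tail, and the myosin chaperone gene Unc45a (0.25), and none lower. Of 16 filament regulators, Cnn3 (0.23) and Cnn1 (0.22) rose and the anillin gene Anln (-0.55) and the caldesmon gene Cald1 (-0.21) fell, with a median of 0.000671. Of the 4 genes of SRF and its cofactors (Srf, Mkl1, Mkl2 and Myocd) none had an unadjusted p under 0.05 in edgeR. Of 14 tested partners of unconventional myosins only the Myo6 adaptor gene Gipc1 passed, and it rose (0.31). In edgeR the adjusted p lay between 0.01 and 0.05 for Dapk1, Cit, Unc45a, Cnn1, Cnn3 and Cald1. For Dapk3, S100a4, Anln and Gipc1 it was under 0.01.

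Both called myosin genes depended on having both control libraries. Without GFP replicate 1 the log2 fold change of Myl12b was 1.13 (edgeR adjusted p = 0.114) and that of Myh11 0.48 (edgeR adjusted p = 0.190). Without GFP replicate 2 they were 1.15 and 0.74 (edgeR adjusted p = 0.174 for each). Without either Cre library both passed. Without a low-count filter Myl12b passed and Myh11 did not (log2 fold change 0.62, edgeR adjusted p = 0.101). The whole table lost its calls in the same way, from 1009 to 12 genes without GFP replicate 1 and to 0 without GFP replicate 2, with 2197 at an unadjusted p under 0.05. Without GFP replicate 2 the partner and marker genes named here were therefore not called either.

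**Figure D5:**
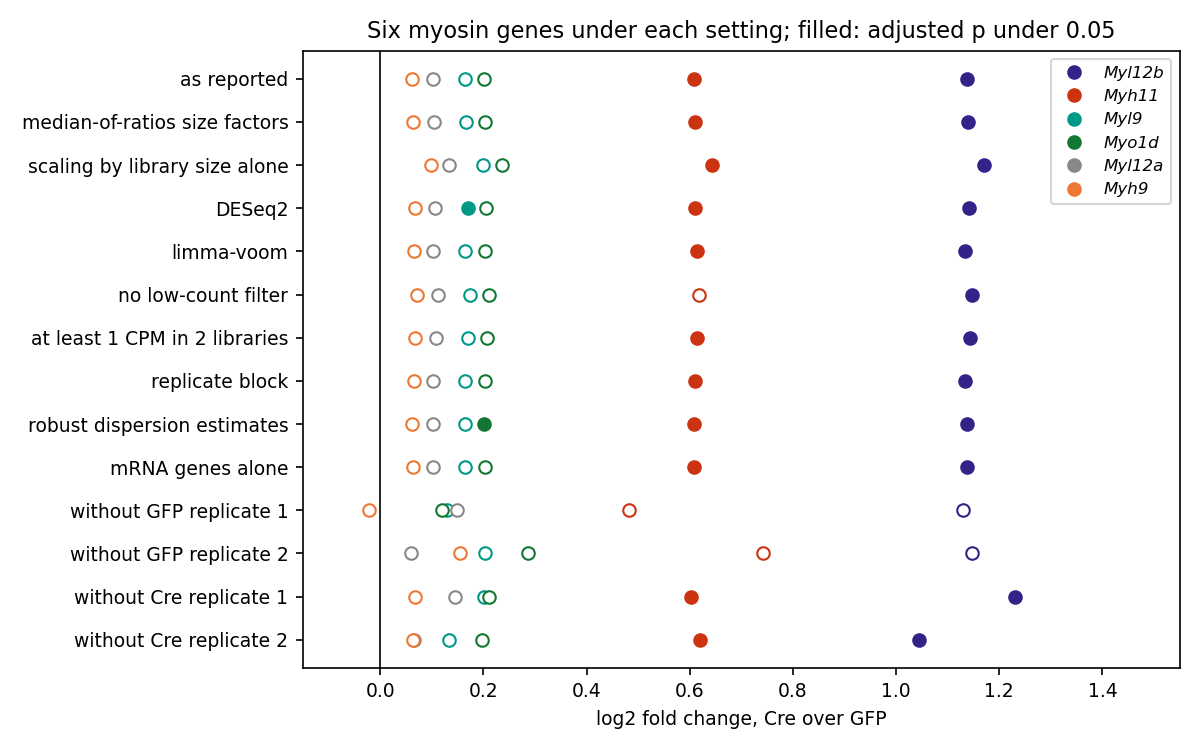
Log2 fold change of 6 myosin genes under each processing setting, with filled points where the adjusted p was under 0.05. Myl12b stays between 1.05 and 1.23 and Myh11 between 0.48 and 0.74, points of both are open without either GFP library, and that of Myh11 is also open without a low-count filter.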

How the data were processed

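The deposited table holds raw read counts per gene for 4 libraries, with no normalization by the authors. HISAT2 and the mouse build GRCm38 are named per the submitters' processing notes. How reads were assigned to genes (program, annotation, strand, multiple mapping) was not given in the sources used here. Counts were tested with edgeR 4.0.16 (filterByExpr with a minimum count of 10 and a minimum total count of 15, TMM, quasi-likelihood F-test, Benjamini-Hochberg adjustment over 14483 genes). Standard errors are the log2 fold change over the square root of F, and 95% intervals use the t quantile of the fit. The script was tested on simulated data. Positions, lengths and transcript sequences came from GENCODE M21, in which all 49 genes were found, and promoters from RefSeq (GRCm38.p6). The members and gene lists were chosen with earlier results of these data known. Values in every library were given for called genes, for the class II non-muscle and smooth muscle chains and for the 8 unconventional myosins highest per transcript length, 1 of which is not reported here (those of Myo1f and Myo1g and counts of Myl4 and Myo1h were added after they were seen), and up to 4 called genes per partner list were named. GFP replicates, like Cre replicates, differed by more than counting noise (median chi-square over genes with more than 200 counts, 2.32 and 1.78 times that of counting noise). Alternatives were median-of-ratios and library-size scaling, DESeq2 1.42.0, limma-voom (limma 3.58.1), other filters, robust dispersion, a replicate block, mRNA genes alone, an adjusted p of 0.01, summed Myl12 counts, coding length, and leaving out each library.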

Additional observations from a re-analysis of the deposited data

How the results depend on the processing

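Of all tested genes, 1009 passed, against 530 with scaling by library size alone (347 higher and 183 lower, against 542 and 467), 380 with DESeq2 (250 and 130), 30 without a low-count filter and 477 at an adjusted p of 0.01. Without each library in turn the count lay between 0 and 516. The number of myosin genes called higher was 2, fell to 1 (Myl12b) without a low-count filter, where Myh11 had an adjusted p of 0.101, and lay between 0 and 2 without each library in turn. DESeq2 added Myl9 and robust dispersion estimates added Myo1d. With the replicate number as a block the same 2 myosin genes were called, and 829 genes over the whole table. Deviations of same-numbered libraries had a correlation of -0.00886, so the numbers are not taken as pairs. The median log2 fold change of the tested myosin genes moved by less than the spread between replicates under each alternative run. Direction turned only without a library, and only in genes that had not passed. Without each library in turn Myo1c lay between -0.0381 and 0.16, Myo1e between -0.00515 and 0.19, Myh9 between -0.0218 and 0.15, Myl6b between -0.37 and 0.0655, Myo10 between -0.0180 and 0.0893, Myo6 between -0.0432 and 0.14, Myo19 between -0.26 and 0.00582, and Myl4 between -0.26 and 0.15. The cause of these changes was not tested. Where 1 library remained in a group, it was assumed to vary as the other group does.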

Other observations

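Of the 18 tested heavy chain and unconventional myosin genes, 13 were higher in GFP replicate 2 than in GFP replicate 1 (median log2 ratio 0.12), while of the 6 tested light chain genes 3 were higher and 3 lower (median log2 ratio -0.01). Over the 24 genes the log2 ratio of the GFP replicates had a Spearman correlation of 0.44 (Pearson 0.47) with log10 coding length. For the Cre replicates these were -0.31 and -0.27, and for the log2 fold change of Cre over GFP -0.22 and -0.23. These are descriptions across genes of the same libraries, and genes are not independent replicates.

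A further row of the table, Myo15b, matched the symbol pattern but was typed as a miscellaneous RNA and was not counted among the 49 genes.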
